A study of Saccharomyces cerevisiae with 12 samples.

Results

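The histone genes of budding yeast were followed by name on 12 yeast oligonucleotide arrays: the 8 genes of the core histones (HTA1 and HTA2 for H2A, HTB1 and HTB2 for H2B, HHT1 and HHT2 for H3, HHF1 and HHF2 for H4), HHO1 for the linker histone H1 and HTZ1 for the variant H2A.Z. These are 10 of the 6256 genes on the array, and all 10 were found by their printed gene name and tested. The cells were FY4, a prototrophic mating type a derivative of S288C, grown on filters laid over minimal medium (YNB) and then moved to plates without D-glucose (carbon starvation) or without ammonium (nitrogen starvation). RNA was taken at 6 times from 10 to 480 min, with 1 array at each time in each starvation. Cy5 (red) labelled the poly(A)+ RNA from starvation and Cy3 (green) that of the exponentially growing zero timepoint on every array, so a log2 ratio above 0 means a larger share of that transcript in the RNA of starved cells. No dyes were swapped, and the zero timepoint is a reference and not a sample. The authors do not state whether the same reference RNA served both starvations. If it did not, a difference between the starvations also holds a difference of reference. No time was repeated within a starvation, so its 6 arrays, at 10, 30 and 60 min (early) and at 120, 240 and 480 min (late), were treated as 6 observations, and each standard error (SE) or standard deviation (SD) holds the course over time as well.

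Core histones form the octamer around which DNA is wrapped, with H2A paired to H2B and H3 paired to H4. In budding yeast each is encoded by paralogous genes that lie in divergent pairs behind a shared promoter, and their transcription is confined largely to late G1 and S phase, when new DNA has to be packaged. The linker histone binds outside the core particle, and H2A.Z replaces H2A near the starts of many genes. Unlike most histone messages of animals, those of yeast carry poly(A) tails, so a library made from poly(A)+ RNA can hold them. In the R64 gene table HTA1 neighbours HTB1 on chromosome IV, HTA2 neighbours HTB2 and HHF1 neighbours HHT1 on chromosome II, and HHT2 neighbours HHF2 on chromosome XIV, while HHO1 and HTZ1 stand alone on chromosomes XVI and XV. Paralogs encode nearly the same protein, and whether a spot of 1 paralog also binds the transcript of the other was not tested.

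All 10 histone genes were well above background in both channels on 12 of 12 arrays, with 0 saturated spots and 0 spots left out. HTA1, HTB1, HHT2 and HHF1 were each printed once, and the other 6 in duplicate, with duplicates at most 0.22 apart on the log2 scale. The arrays themselves differed. The 4 dimmest, carbon starvation at 10, 30 and 60 min and nitrogen starvation at 10 min, had 42.7 to 78.4% of their spots well above background in red, where the other 8 had 84.8 to 93.4%. Across the rows held of the transcript table that accompanies the study, the deposited ratios of those 4 arrays correlated with the column of the same label at r of 0.03 to 0.65, and the ratios of the other 8 at r of 0.999 or more. All 12 were used as labelled, and the main counts of histone genes are also given without the 4. Since every early carbon array is among the 4, time and array cannot be told apart within carbon starvation. Markers of mating type were read in the zero timepoint, so they cannot test a starvation or time label. The pheromone genes MFA1 and MFA2, the receptor gene STE2 and the protease gene BAR1 of mating type a were above background on 12 of 12 arrays. The alpha factor genes MF(ALPHA)1 and MF(ALPHA)2 were so on 0 of 12, which is no measure of how little was there. The a-factor receptor gene STE3, of mating type alpha, was above background on 10 of 12. The glucose-repressed genes ADH2, ICL1, PCK1 and FBP1 stood between 4.88 and 9.23 on the carbon starvation arrays from 120 min on, and between -0.53 and 6.92 on those up to 60 min. The ammonium-repressed genes MEP2, GAP1, DAL5 and DAL80 stood between 0.46 and 3.81 on the nitrogen starvation arrays from 60 min on, between -0.20 and 1.04 at 30 min and between -1.26 and 1.57 at 10 min. The glucose-repressed genes also stood between 0.12 and 4.37 on the nitrogen starvation arrays from 60 min on. On the early carbon arrays and at 10 and 30 min of nitrogen starvation the ranges of the starvation's own markers reached below 0. The markers therefore do not settle those labels.

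The core histone transcripts parted in the 2 starvations. In carbon starvation their mean began above the zero timepoint and ended below it, and in nitrogen starvation it stood above until 240 min and was near it at 480 min. The mean of the 8 core genes on the carbon starvation arrays went from 0.49, -0.18 and -0.74 early to -1.07, -1.37 and -0.93 late. On the nitrogen starvation arrays it was 0.75, 1.03 and 0.69 early and 0.94, 0.47 and -0.21 late. Over all 10 genes, 28 of the 30 values from 120 min on were below 0 in carbon starvation and 6 of 30 in nitrogen starvation, and all 6 of the latter were at 480 min. Of the 30 values up to 60 min, 19 were below 0 in carbon starvation and 3 in nitrogen starvation. These counts pool genes that vary together, and the share of all genes below 0 was not counted. The all-gene median was 0.19, -0.10 and -0.30 on the late carbon arrays and 0.60, 0.31 and -0.15 on the late nitrogen arrays. On the early arrays it was -0.56, -0.47 and -0.95 in carbon and -0.08, 0.07 and 0.31 in nitrogen starvation.

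**Figure D1:**
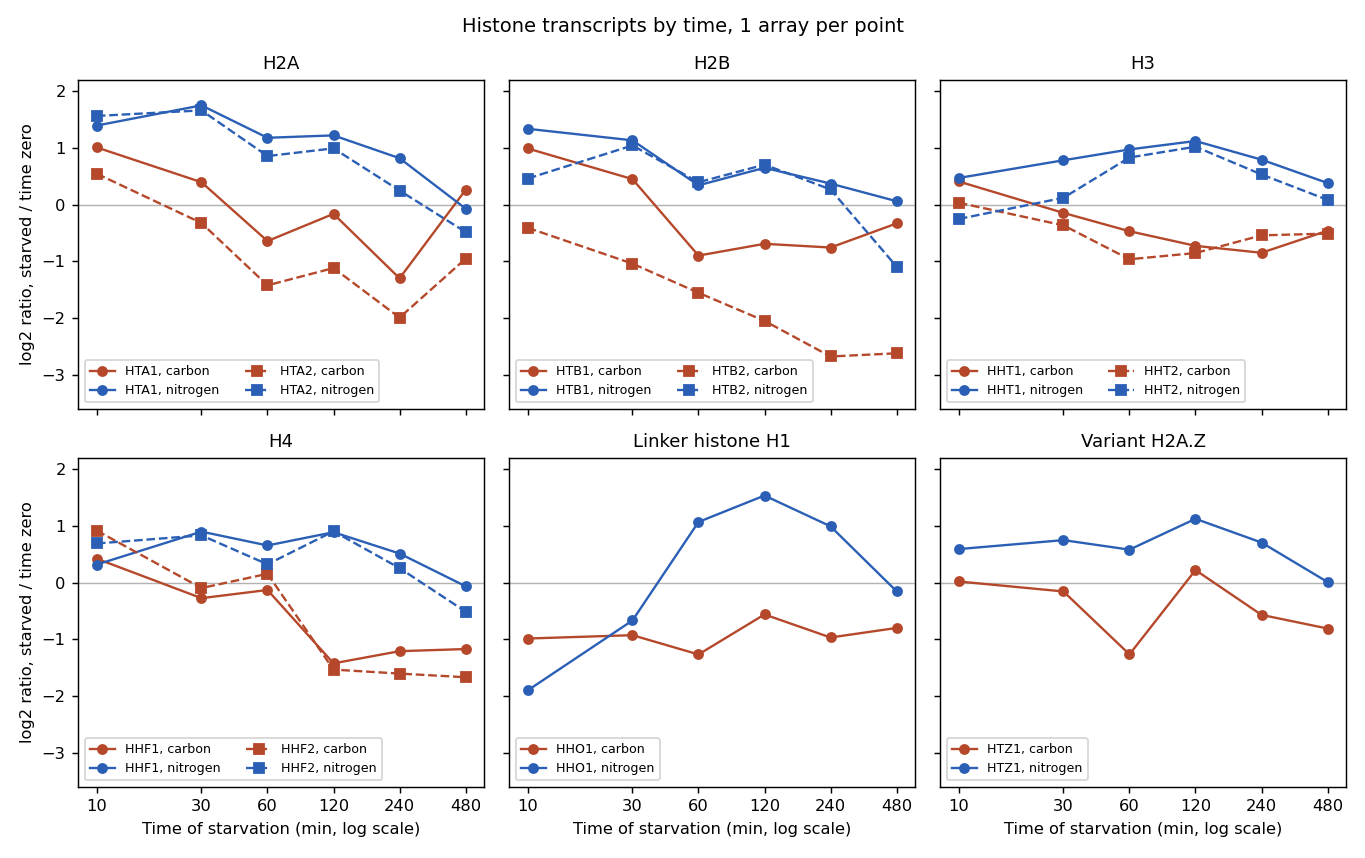
Log2 ratio of starved over zero-timepoint signal (y axis) against time of starvation in minutes on a log scale (x axis) for the histone genes, grouped by the protein they encode, with 1 array per point and no error bars. Carbon starvation is red and nitrogen starvation blue, and squares on dashed lines are the paralogs named HTA2, HTB2, HHT2 and HHF2. HTB2 reached -2.68 at 240 min of carbon starvation, and HHO1 went from -1.90 at 10 min to 1.53 at 120 min of nitrogen starvation. The nitrogen starvation array at 10 min and the early carbon starvation arrays are the 4 dimmest.

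These ratios are shares of the labelled RNA, and the position of all genes moved between arrays too. The median log2 ratio of all genes lay between -0.95 and 0.60, being -0.56, -0.47 and -0.95 on the early carbon arrays and 0.19, -0.10 and -0.30 on the late ones. Relative to that median the core mean was 1.05, 0.29 and 0.21 on the early carbon arrays and -1.26, -1.26 and -0.63 on the late ones. In nitrogen starvation it was 0.83, 0.96, 0.38, 0.33, 0.17 and -0.06. The core mean thus lay above the all-gene median up to 60 min of both starvations, below it from 120 min of carbon starvation on, and above it in nitrogen starvation until 240 min. Ranked among all genes of an array, the core genes held a mean percentile of 78.9 at 10 min and 26.5 at 120 min of carbon starvation, and of 84.2 at 30 min and 48.1 at 480 min of nitrogen starvation. In RNA from whole cultures, fewer cells that make histone transcripts and less transcript per cell cannot be told apart.

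**Figure D2:**
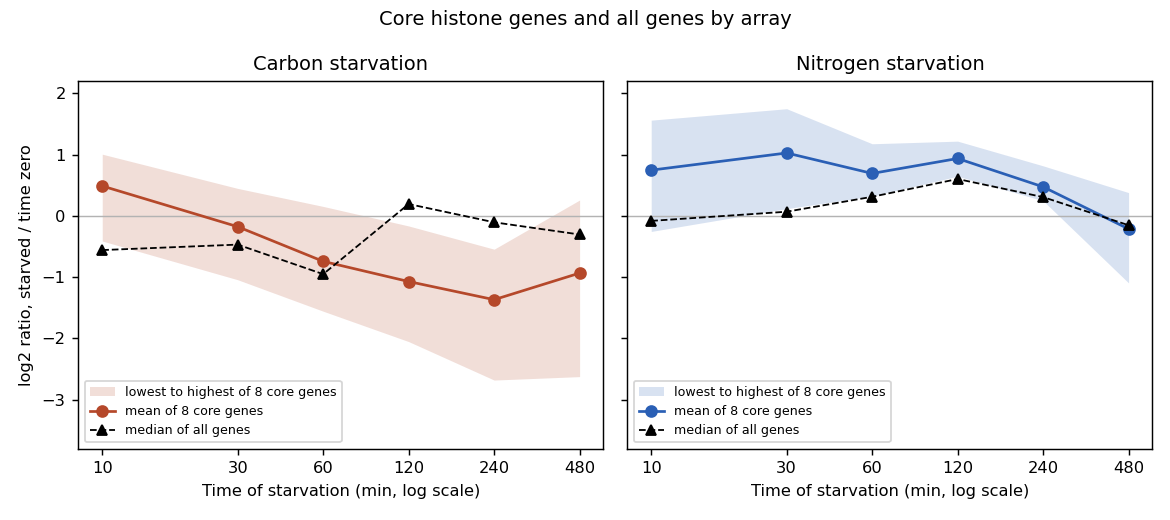
Mean log2 ratio of the 8 core histone genes (circles), the range from the lowest to the highest of them (shading) and the median of all genes (triangles), against time in minutes on a log scale, 1 array per time. The core mean crosses below the all-gene median between 60 and 120 min of carbon starvation, and meets it at 480 min of nitrogen starvation, where the values are -0.21 and -0.15.

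H2A is encoded by HTA1 and HTA2. HTA1 measured 1.01, 0.39, -0.64, -0.16, -1.30 and 0.26 from 10 to 480 min of carbon starvation, and 1.39, 1.75, 1.18, 1.22, 0.82 and -0.07 in nitrogen starvation. Its highest value, at 30 min of nitrogen starvation, is a 3.36-fold higher ratio than at time zero, and the values of the 2 starvations overlapped. HTA1 rose in nitrogen starvation, with a mean change of 1.05 (SE 0.29, limma adjusted p = 0.0119), and its mean in carbon starvation was -0.08 (adjusted p = 0.84). HTA2 measured 0.54, -0.33, -1.42, -1.12, -1.99 and -0.96 in carbon starvation, and 1.56, 1.66, 0.85, 0.99, 0.25 and -0.48 in nitrogen starvation. It was higher in nitrogen starvation at all 6 times. HTA2 fell by 0.88 in carbon starvation (SE 0.33, limma adjusted p = 0.0358) and averaged 0.80 in nitrogen starvation (adjusted p = 0.0655).

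H2B is encoded by HTB1 and HTB2, the neighbours of the H2A genes. HTB1 measured 0.99, 0.45, -0.90, -0.69, -0.76 and -0.33 in carbon starvation, and 1.33, 1.13, 0.34, 0.65, 0.37 and 0.06 in nitrogen starvation. Neither mean passed the test, at -0.21 (limma adjusted p = 0.53) and 0.65 (adjusted p = 0.0666). HTB2 had the lowest values of the 10 genes on 5 of the 6 carbon starvation arrays, with -0.41, -1.04, -1.56, -2.05, -2.68 and -2.62 from 10 to 480 min. The values went down from array to array until 240 min, when the signal was 0.156 times that of time zero, and HTB2 then ranked at percentile 11.7 of all genes. HTB2 fell by 1.73 on average (SE 0.32, limma adjusted p = 0.000576), and this call was kept under all 11 other settings and without any of the 12 arrays. In nitrogen starvation HTB2 measured 0.46, 1.04, 0.39, 0.70, 0.27 and -1.09, a mean of 0.29 (adjusted p = 0.47).

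The carbon starvation values of the H3 genes HHT1 and HHT2 varied less than those of the other core genes. Their SDs were 0.45 and 0.36, against 0.74 (HHF1) or more. HHT1 measured 0.41, -0.15, -0.47, -0.73, -0.85 and -0.46 in carbon starvation, and 0.47, 0.78, 0.97, 1.12, 0.79 and 0.38 in nitrogen starvation. Every nitrogen value was above 0, and the lowest of them, 0.38, lay below the highest carbon value, 0.41. HHT1 rose by 0.75 in nitrogen starvation (SE 0.20, limma adjusted p = 0.00843), a call kept under all 11 other settings and without any array, and averaged -0.38 in carbon starvation (adjusted p = 0.12). HHT2 measured 0.03, -0.37, -0.96, -0.86, -0.54 and -0.51 in carbon starvation, and -0.25, 0.12, 0.83, 1.02, 0.53 and 0.08 in nitrogen starvation. Its highest nitrogen value was at 120 min, as for HHT1, whereas the H2A genes were highest at 30 min. This order did not hold relative to the all-gene median of each array. There HHT1 was highest at 30 min (0.71), HHT2 at 60 min (0.52), HTA1 at 30 min (1.68) and HTA2 at 10 min (1.64). HHT2 fell by 0.54 in carbon starvation (SE 0.21, limma adjusted p = 0.0418) and averaged 0.39 in nitrogen starvation (adjusted p = 0.15).

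The H4 genes HHF1 and HHF2 stepped down between 60 and 120 min of carbon starvation. HHF1 measured 0.42, -0.28 and -0.13 up to 60 min of carbon starvation and -1.42, -1.21 and -1.17 after it. HHF2 measured 0.92, -0.10 and 0.15 and then -1.53, -1.60 and -1.67. For both genes the early and the late carbon values did not overlap, and the same held for HTB2. The share of all genes without such overlap was not counted, so it is not shown to be particular to these genes. By another measure, the limma calls, 16.1% of genes were lower and 30.2% higher late than early. The early carbon arrays are all among the dimmest, so time and array cannot be told apart here. In nitrogen starvation HHF1 measured 0.32, 0.90, 0.65, 0.89, 0.51 and -0.06, and HHF2 measured 0.69, 0.83, 0.32, 0.90, 0.26 and -0.51. HHF1 fell by 0.63 on average in carbon starvation (SE 0.25, limma adjusted p = 0.0449). HHF2, with nearly the same mean of -0.64, did not pass the test (SE 0.34, limma adjusted p = 0.12). Its 6 values had an SD of 1.11, and those of HHF1 an SD of 0.74.

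HHO1 encodes the linker histone and HTZ1 the variant H2A.Z. HHO1 measured -0.99, -0.93, -1.27, -0.56, -0.97 and -0.80 in carbon starvation, below 0 from the first array on. Relative to the all-gene median of each array these values were -0.43, -0.46, -0.32, -0.76, -0.86 and -0.50. HHO1 fell by 0.92 on average (SE 0.36, limma adjusted p = 0.0410). In nitrogen starvation HHO1 measured -1.90, -0.67, 1.07, 1.53, 0.99 and -0.15, from percentile 4.45 of all genes at 10 min, and its mean of 0.15 hides this swing (SE 0.36, limma adjusted p = 0.76). The low end of the swing rests on the dim 10 min array, whose ratios correlated with the study's column of the same label at r of 0.03. HTZ1 measured 0.02, -0.16, -1.27, 0.22, -0.57 and -0.81 in carbon starvation, and 0.59, 0.75, 0.58, 1.12, 0.71 and 0.01 in nitrogen starvation. All 6 nitrogen values were above 0, and HTZ1 rose by 0.63 (SE 0.22, limma adjusted p = 0.0350), with a carbon mean of -0.43 (adjusted p = 0.11). CSE4, which encodes the H3 variant of the centromere and is no member of the 10, averaged -0.33 in carbon (adjusted p = 0.32) and 0.71 in nitrogen starvation (adjusted p = 0.0513).

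**Figure D3:**
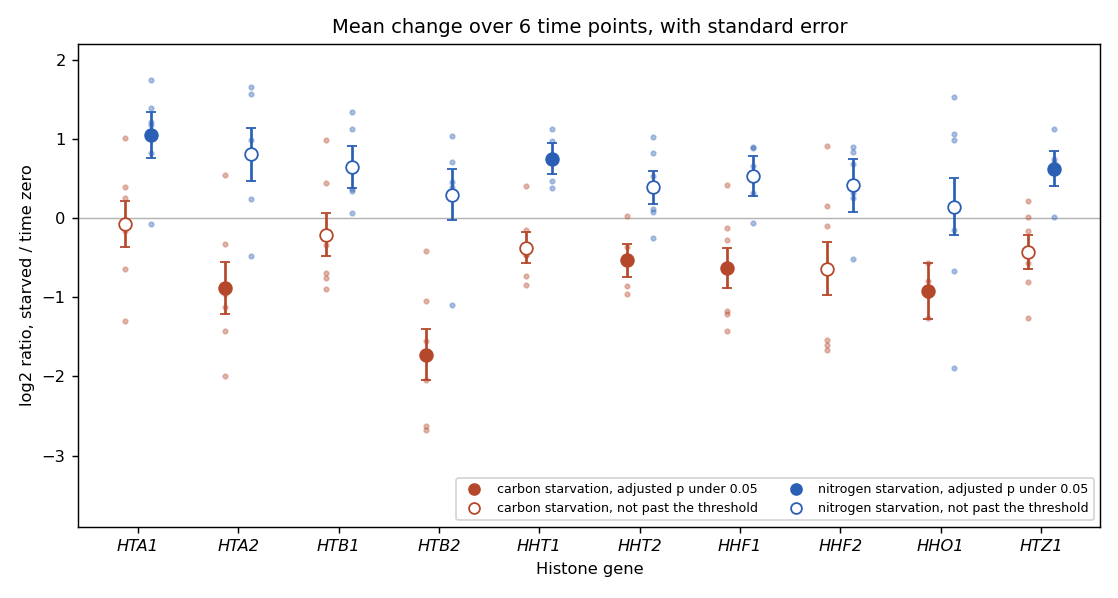
Mean log2 ratio over the 6 time points of each starvation (large circles) with the limma standard error, and the 6 arrays behind it (dots), for the 10 histone genes. Filled circles passed an adjusted p of 0.05: HTA2, HTB2, HHT2, HHF1 and HHO1 lower in carbon starvation, and HTA1, HHT1 and HTZ1 higher in nitrogen starvation.

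In all, 5 of the 10 histone genes were called lower in carbon starvation and 0 higher, where 40.2% of the 5578 genes tested were called lower and 16.4% higher (limma, adjusted p under 0.05). The median of the 10 was -0.58 and that of all genes -0.37, and the former was -0.30 with no further scaling, -0.22 with median centring and -0.15 with loess. The 5 called genes were below 0 under every scaling, whereas HTA1 and HTB1 turned positive with no further scaling, with loess, in the series table and when each array was centred on its median, and HHT1 with loess. Only HTB2 was called after median centring, with no further scaling, after loess, or from the deposited series table. Of all genes 1607, 1812, 1286 and 1736 were then called lower. Over the arrays from 120 to 480 min alone, 8 of the 10 were called lower, all but HTA1 and HTZ1, against 37.5% of genes, and without the 4 dimmest arrays 7 were, against 37%. Leaving out single carbon arrays left 2 genes called without 30 or 60 min and 1 without 120, 240 or 480 min, and 3 remained called without 30 or 240 min of nitrogen starvation.

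In nitrogen starvation 3 of the 10 were called higher and 0 lower, where 22.1% of genes were called higher and 19.4% lower. All 10 means were above 0, with a median of 0.58 against 0.18 for all genes, but HHO1 was at -0.03 under median centring and between -0.13 and -0.02 without 60, 120 or 240 min, and HTB2 was at -0.04 over 120 to 480 min. Without the 4 dimmest arrays 6 were called higher, against 36.7% of genes, and from 120 to 480 min HHT1 (0.76) and HHO1 (0.79), against 33% of genes. Leaving out 10, 30, 60, 120 or 240 min of nitrogen starvation left 2 called, and leaving out 10 min of carbon starvation raised the count to 5, since the fit holds 1 spread per gene for both starvations.

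Set against each other, every one of the 10 histone genes had a higher mean in nitrogen than in carbon starvation, by 0.85 (HTB1) to 2.02 (HTB2), and this sign held under all the scalings tried. The difference was called for 4 of the 10, where 10% of genes were called higher and 0.502% lower (limma, adjusted p under 0.05). HTB2 differed by 2.02 (SE 0.45, adjusted p = 0.0162), HTA2 by 1.68 (SE 0.47, adjusted p = 0.0363), HHT1 by 1.13 (SE 0.28, adjusted p = 0.0234) and HTZ1 by 1.05 (SE 0.31, adjusted p = 0.0452). At each of the 6 times these 4 genes and HTB1 were higher in nitrogen starvation, and the other 5 genes were at 5 of 6 times. The median of all genes was also higher in nitrogen starvation at each time, from -0.08 against -0.56 at 10 min to -0.15 against -0.30 at 480 min. Relative to that median, HTB2, HTA2 and HTZ1 stayed higher at each time. HHT1 at 10 min (0.55 against 0.96) and HTB1 at 10 and 60 min were then lower in nitrogen starvation. HHF1 (1.17, adjusted p = 0.0516) and HHT2 (0.92, adjusted p = 0.0608) lay just outside the threshold. The median difference of the 10 was 1.09, and that of all genes 0.39. It was 0.70 with no further scaling, 0.58 with loess and 0.55 with median centring.

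That difference between the starvations rests on the scaling of the arrays. With no further scaling, after loess, from the deposited series table or with median centring, limma called 0 of the 10. It put 3 (median centring) or 4 past an unadjusted p of 0.05. After normexp background correction with equal totals 9 were called higher, where 240 of all genes were called higher and 1114 lower. Without the 4 dimmest arrays 9 of the 10 were called higher, against 18.5% of genes, and over 120, 240 and 480 min alone 7 were, against 16.5%. In the latter, times are matched and none of the 4 dim arrays enters: HTB2 differed by 2.41 (adjusted p = 0.00431), HHF2 by 1.82 (adjusted p = 0.00780) and HHF1 by 1.71. Without 240 or 480 min of carbon starvation, or without 60, 120 or 240 min of nitrogen starvation, HTB2 alone was called, and without 30 min of nitrogen starvation 2 genes were.

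The course over time was compared as the arrays at 120, 240 and 480 min minus those at 10, 30 and 60 min. In carbon starvation the H4 genes and HTB2 were lower late than early. HHF2 went from a mean of 0.32 to -1.60, a change of -1.93 (SE 0.40, limma adjusted p = 0.00262). HHF1 changed by -1.27 (adjusted p = 0.0105) and HTB2 by -1.45 (adjusted p = 0.0247). These 3 of the 10 were called lower and 0 higher, where 16.1% of genes were called lower and 30.2% higher, and the median of the 10 was -0.71 and that of all genes 0.41. With normexp and equal totals 5 of the 10 were above 0 and the median was -0.05. With median centring 8 were called lower, and 6 with no further scaling, where 1522 and 1254 of all genes were called lower. The early group is made of the 3 dim carbon arrays. Without the 10 min carbon array only HHF2 was called, without 30, 240 or 480 min 2 genes were, and without 60 min 5 were.

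In nitrogen starvation late minus early called 0 of the 10, as it called 0% of all genes (limma), and at an unadjusted p under 0.05 it picked 0 of the 10 and 916 of all genes. The largest differences were 1.29 for HHO1 and -1.11 for HTA2. Without the 60 min array HHO1 was called, at 2.07 (limma adjusted p = 0.00849), and without the dim 10 min array its difference was 0.59 (adjusted p = 0.99). Without the 4 dimmest arrays 0 of the 10 were called. The difference between the 2 courses was called for 0 of the 10, with 4.98% of all genes called and 2 of the 10 past an unadjusted p of 0.05. HHF2 was nearest, at 1.53 (limma adjusted p = 0.12).

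Differences between histone genes on the same array do not move when the array is scaled by 1 factor, though they can with loess. In all, 10 such comparisons were made over the 12 arrays, each by an exact sign-flip permutation test (two-sided, smallest p 0.000488), with Benjamini-Hochberg adjustment over the 10. Among paralogs, HTA1 stood above HTA2 on 11 of 12 arrays, by 0.52 on average (SD 0.38, exact adjusted p = 0.00732). HTB1 stood above HTB2 on 10 of 12, by 0.94 (SD 0.80, exact adjusted p = 0.00977), and HHT1 above HHT2 on 11 of 12, by 0.26 (SD 0.28, exact adjusted p = 0.0220). In each of these the gene with the suffix 1 kept the higher ratio to time zero. HHF1 and HHF2 differed by 0.06 (SD 0.34, exact adjusted p = 0.58), with the sign mixed over the arrays at 7 of 12. HHF1 minus HHF2 averaged -0.32 early and 0.33 late in carbon starvation, and 0.01 early and 0.23 late in nitrogen starvation. These are differences in change from time zero, not in level. The test takes the 12 arrays as independent, but all have a zero timepoint reference and the same dye for each channel. A bias of reference or dye particular to 1 gene could move all 12 the same way, and the test cannot tell it from a change.

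On average the H2A paralogs stood 0.80 apart on the carbon and 0.24 apart on the nitrogen arrays, and the H2B paralogs 1.52 and 0.35 apart. In carbon starvation HTB1 exceeded HTB2 by 0.66 at the least and by 2.29 at 480 min. On the nitrogen arrays HTB1 minus HTB2 was 0.88 at 10 min, between -0.06 and 0.10 from 30 to 240 min and 1.15 at 480 min. Whether these gaps differ between the starvations was not tested. For the H3 paralogs the gap was 0.36 with nitrogen and 0.16 with carbon starvation.

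Of the 4 pairs of divergent neighbours, 2 differed. HTA2 stood above HTB2 on 11 of 12 arrays, by 0.68 (SD 0.46, exact adjusted p = 0.00732), and HHT1 above HHF1 on 9 of 12, by 0.24 (SD 0.31, exact adjusted p = 0.0469). HTA1 and HTB1 differed by 0.27 (SD 0.40, exact adjusted p = 0.0798), and HHT2 and HHF2 by 0.04 (SD 0.80, exact adjusted p = 0.87). The latter mean hides a turn with time. HHT2 minus HHF2 averaged -0.76 early and 0.97 late in carbon starvation, and -0.38 early and 0.33 late in nitrogen starvation. HTZ1 differed from the mean of HTA1 and HTA2 by -0.12 (SD 0.65, exact adjusted p = 0.58), and HHO1 from the core mean by -0.37 (SD 1.06, exact adjusted p = 0.37). These means hide a turn too. The HTZ1 difference averaged -0.39 early and 0.49 late in carbon starvation, and -0.76 early and 0.16 late in nitrogen starvation. The HHO1 difference averaged -0.92 early and 0.35 late in carbon starvation, and -1.32 early and 0.39 late in nitrogen starvation. Change with time was not tested for these differences. Without the 4 dimmest arrays the calls for HTA1 over HTA2 and for HTA2 over HTB2 were kept (exact adjusted p = 0.0391 each), HTB1 minus HTB2 was 0.85 (exact adjusted p = 0.0938), HHT1 minus HHT2 was 0.17 (exact adjusted p = 0.16), and HHF1 minus HHF2 became 0.26 (exact adjusted p = 0.0391). The call for HHT1 over HHF1 was kept with 10 or 60 min of carbon or 30 min of nitrogen starvation left out and lost with any of the other 9 arrays left out, at an exact adjusted p of up to 0.0938. HTA1 minus HTB1 was called without 240 min of carbon starvation (0.34, exact adjusted p = 0.0215).

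**Figure D4:**
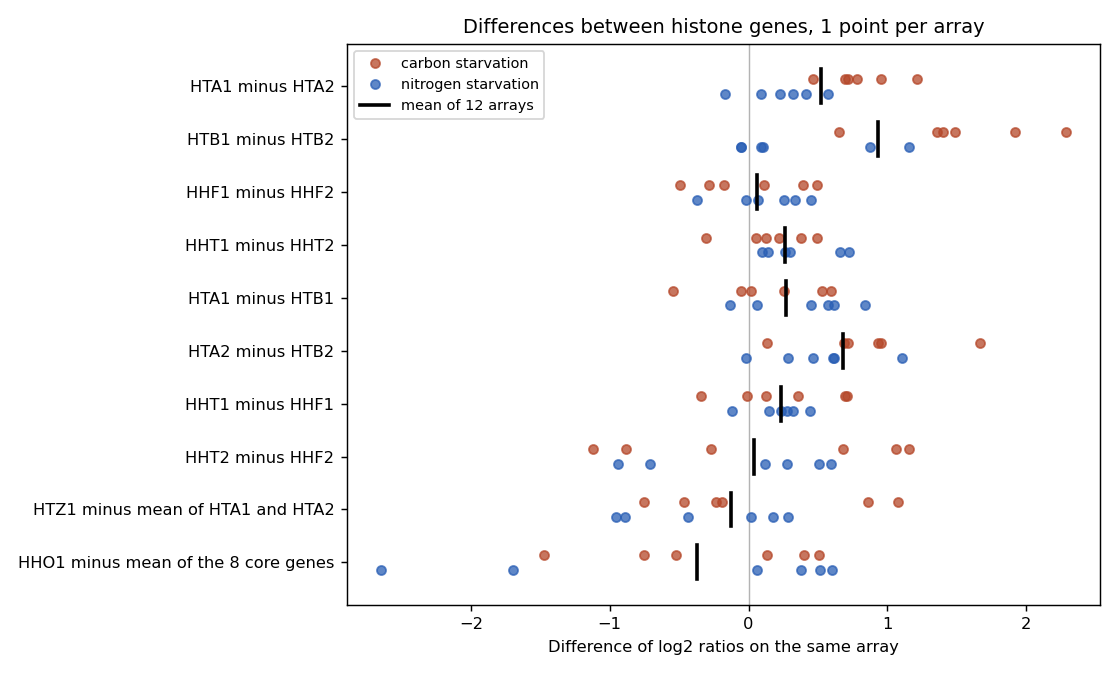
Difference of log2 ratios between 2 histone genes on the same array (x axis) for the 10 comparisons, 1 point per array, with carbon starvation in red, nitrogen starvation in blue and a black bar at the mean of the 12 arrays. All 6 carbon points of HTB1 minus HTB2 lie above 0, between 0.66 and 2.29, and 4 of the 6 nitrogen points lie between -0.06 and 0.10.

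Across the 12 arrays the core genes varied together. Each correlated with the mean of the other 7 at r of 0.74 (HHT2) to 0.97 (HTB2), and the 28 pairs of core genes at 0.58 to 0.97. With the core mean HTZ1 had an r of 0.80, CSE4 of 0.43 and HHO1 of 0.39. These are descriptions over 12 arrays that lie on 10 slides, were scaled alike and all have a zero timepoint reference. Of 5332 genes outside the 10 with a value on every array, those most like the core mean included ALA1, the alanyl-tRNA synthetase gene (r = 0.962), YCR043C (0.956), RFA1, a subunit of the single-stranded DNA binding protein RPA (0.955), and GUS1, the glutamyl-tRNA synthetase gene, printed as YGL245W (0.955).

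Genes that act with histones or at the same stage of the cell cycle were counted in 4 lists. Of all 5578 genes tested, 40.2% were called lower and 16.4% higher in carbon starvation, 19.4% lower and 22.1% higher in nitrogen starvation, and 10% higher for nitrogen minus carbon. Of the S phase DNA synthesis genes, 15 of 17 were called lower and 0 higher in carbon starvation, with a median of -1.33, and 16 lower without the 4 dimmest arrays. In nitrogen starvation 1 was lower and 2 higher, with a median of -0.15, but 5 were lower and 2 higher without the 4 dimmest arrays, and 5 lower and 1 higher from 120 to 480 min. RNR1, the large subunit of ribonucleotide reductase, ran from -4.47 to -1.68 over the carbon arrays and fell by 3.21 (SE 0.35, limma adjusted p = 1.80e-05). POL30 (PCNA), RAD27 (the flap endonuclease) and POL1 (the catalytic subunit of polymerase alpha) fell by 2.73, 2.03 and 1.96. RFA3 (0.98) and RFA1 (0.79) of RPA rose in nitrogen starvation, and CDC9, the DNA ligase gene, fell by 1.01. Nitrogen minus carbon called 11 of the 17 higher and 0 lower, with a median of 1.22 against 1.09 for the histone genes. With normexp and equal totals 4 of the 17 were called lower and 1 higher in carbon starvation, where 931 of all genes were lower and 2746 higher. For nitrogen minus carbon any of the other scalings left at most 2 of the 17. Leaving out 240 or 480 min of carbon starvation, or 30, 60, 120 or 240 min of nitrogen starvation, left 4 or 5 of the 17 for that difference, and without the 4 dimmest arrays all 17 were called higher.

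Histone chaperones and the acetyltransferases of assembly carry new histones to DNA. In carbon starvation 11 of 16 were called lower and 1 higher (median -0.77), with 9 lower without the 4 dimmest arrays and 6 lower after loess. In nitrogen starvation 4 were lower and 2 higher (median -0.22), with 7 lower with no further scaling and 8 with loess or median centring, and 1 lower from 120 to 480 min. CAC2, RLF2 and MSI1, the subunits of chromatin assembly factor CAF-1, fell in carbon starvation by 2.06, 1.59 and 1.75. In nitrogen starvation RLF2 fell by 1.24, HIF1, a partner of the Hat1 acetyltransferase, by 1.05 and CAC2 by 0.85 (limma adjusted p = 0.00193, 0.00257 and 0.0123). CHZ1, a chaperone of H2A.Z, rose in both, by 1.64 and 1.44. For nitrogen minus carbon 5 of the 16 were called higher and 0 lower, with at most 2 called under any of the other scalings and 2 or 3 when 10, 30, 60, 240 or 480 min of carbon starvation or 30, 60, 120 or 240 min of nitrogen starvation was left out. With normexp and equal totals 2 of the 16 were called lower and 3 higher in carbon starvation, where 931 of all genes were lower and 2746 higher.

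The SWR1 complex exchanges H2A for H2A.Z. Of its 11 genes tested, 7 were called lower and 1 higher in carbon starvation (median -0.88), with 2 lower and 2 higher after loess. In carbon starvation SWC5 fell by 1.26, BDF1 by 1.12, RVB2 by 0.98 and ARP6 by 0.96. In nitrogen starvation VPS71 rose by 0.65 and RVB2 fell by 0.53, with 3 lower and 2 higher without the 4 dimmest arrays and 4 lower and 1 higher with loess or median centring, and 1 higher and 0 lower without 60, 240 or 480 min of nitrogen starvation. Nitrogen minus carbon called 0 of the 11 (limma), with 2 at an unadjusted p under 0.05. Over the arrays without the 4 dimmest, 2 were called lower and 1 higher in carbon starvation. With normexp and equal totals 2 were lower and 7 higher, where 931 of all genes were lower and 2746 higher. HTZ1 itself averaged -0.43 in carbon and 0.63 in nitrogen starvation.

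Among the regulators of histone transcription, the genes called in each starvation did not share a direction. The mean was above 0 for 2 of the 10 in carbon starvation and for 8 in nitrogen starvation. Their medians were -0.26 and 0.22, against -0.37 and 0.18 for all genes. For nitrogen minus carbon 8 were above 0, with a median of 0.38 against 0.39. Of 10, 2 were called higher and 2 lower in carbon starvation, and 1 each in nitrogen starvation, where 3 were higher and 1 lower from 120 to 480 min. MBP1, the DNA-binding subunit of the MBF factor, rose by 1.29 with carbon and by 1.31 with nitrogen starvation. SPT10, an activator that binds histone promoters, fell by 0.71 and 1.01, HIR1, a subunit of the HIR repressor, fell by 1.14 in carbon starvation, and YTA7, a bromodomain ATPase at histone genes, rose by 0.51. Nitrogen minus carbon called 0 of the 10 (limma), with 2 at an unadjusted p under 0.05. With normexp and equal totals 8 of the 10 were called higher in carbon starvation, where 2746 of all genes were called higher and 931 lower.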

How the data were processed

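For each array the authors deposited a scanner file from Feature Extraction. Per the file headers, each channel holds a processed intensity that was background-corrected and dye-normalized, together with the log10 ratio of red over green. The deposited series table holds log2 ratios that equal the scanner ratios within 5e-04. Approximately equal amounts of RNA were loaded for both channels, and the authors scaled scans to equal red and green totals, which was done here too. This moved arrays by -0.42 to 0.68 (log2). The dye-normalized green intensity of the 10 histone genes varied between arrays with a coefficient of variation of 40.6 to 48.1%.

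Controls, spots the scanner software marked as outliers and spots that neither dye raised well above background were dropped, and the remaining spots of each gene averaged. Where a gene had 4 or more values per starvation, limma 3.58.1 (R 4.3.3) tested it in 1 fit with a coefficient for each starvation, and for late minus early in a fit of 4 classes of 3 arrays, with at least 2 values in each. Calls are at an adjusted p (Benjamini-Hochberg, over all genes) below 0.05. Differences between histone genes were tested by exact sign flips over arrays.

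The members and the gene lists were chosen with earlier results of these data known. Named genes are the 10 members, CSE4, up to 4 members of each list and starvation with the largest mean change among those called, and the 5 genes most like the core mean, 1 of which is not reported here. Listed symbols were matched through locus tags of the R64 table, which gave a name to 5756 of the 6256 genes. The labels give no separate cultures within a time, so a p-value measures the spread over time points. The 12 arrays lie on 10 slides, 2 of which hold 2 arrays. Alternatives were other background corrections, scalings, filters and variances, the series table, the slide and the time point as blocks, the late arrays alone, the arrays without the 4 dimmest, and each array left out. Each step was tested on simulated data. The number of arrays limits the precision. Figures were drawn with matplotlib 3.10.9 in Python 3.11.15.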

Additional observations from a re-analysis of the deposited data

Results flagged for a closer look

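HTB2 at 480 min of nitrogen starvation, at -1.09, lay far from the 5 other nitrogen values of this gene, which ran from 0.27 to 1.04. Among the 22 sets of 6 values examined for such a gap (11 genes in 2 starvations) it was the only sample to stand apart, and chance alone marks about 1 set in 20.

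The change from time zero differed between the starvations for 4 histone genes in the test of nitrogen minus carbon. The differences were 2.02 for HTB2, 1.68 for HTA2, 1.13 for HHT1 and 1.05 for HTZ1, with limma adjusted p between 0.0162 and 0.0452. Each gene, like the median of all genes, was higher in nitrogen starvation at 6 of 6 times. Without the 4 dim arrays, which also takes away every early carbon time, the differences were 2.71, 2.01, 1.49 and 1.02.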

How the results depend on the processing

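Counts of called histone genes depended on the scaling. In carbon starvation (5 called) 1 was called with no further scaling, with normexp and loess, from the series table and with median centring, and 8 over 120 to 480 min alone. In nitrogen starvation (3 called) 6 were called with normexp and equal totals and 6 without the 4 dimmest arrays. For nitrogen minus carbon (4 called) 0 were called with no further scaling, loess, the series table or median centring, 9 with normexp and equal totals, 7 over 120 to 480 min alone and 9 without the 4 dimmest arrays. Late minus early in carbon starvation (3 called) gave 6 with no further scaling, 6 from the series table and 8 with median centring. The difference of the courses (0 called) gave 1 with no further scaling, 1 with loess, 1 from the series table and 2 with median centring. The cause was not tested. With single arrays left out, the counts ran from 1 to 6 in carbon starvation, from 2 to 5 in nitrogen starvation, from 1 to 6 for nitrogen minus carbon, from 1 to 5 for late minus early in carbon starvation, from 0 to 1 for it in nitrogen starvation, at 0 for the difference of the courses and from 4 to 5 of the 10 differences between histone genes.

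With the time point as a replicate block 5 histone genes were called for nitrogen minus carbon in place of 4. The labels give no replicate numbers, so the pairing is by time alone, and all genes called went from 588 to 947. CSE4 turned from -0.33 to 0.50 (limma adjusted p = 0.0375) in carbon starvation with normexp and equal totals. Over all genes, the share of calls that were higher moved in carbon starvation from 29% to 43.8% with no further scaling, 53.8% with loess, 74.7% with normexp and equal totals and 50.1% with median centring, and for nitrogen minus carbon from 95.2% to 77.1%, 62.5%, 17.7% and 53.2%, with 170, 16, 1354 and 77 genes called. The series table gave 45.3% and 71.8% (174 called). For nitrogen minus carbon 1248 genes were called over 120 to 480 min (73.4% higher) and 1492 without the 4 dimmest arrays (68.9%). For late minus early in carbon starvation the share higher was 65.1%, and 52.8%, 46.9%, 16.8%, 42% and 49.6% under these 5 scalings in the same order. For the difference of the courses 274 genes were called (46% higher), and 590, 873, 2383 (95.9%), 613 (65.3%) and 501 (57.9%) under them. Requiring signal in both channels on all 12 arrays, which tests fewer genes, left 1528, 1244, 234, 1059 and 92 genes in the order carbon, nitrogen, their difference, late minus early in carbon starvation and the difference of the courses. With the slide as a block 447 were called for that difference, and for late minus early in nitrogen starvation, where 0 genes were called, 4 were with normexp and equal totals, 2 with the slide as a block and 1 with a trended robust variance. Other filters, the slide as a random block and a trended robust variance moved no histone count by over 1.5 times. Late minus early in carbon starvation could not be run without the 4 dimmest arrays, which hold all of its early arrays. Red signal limits the early carbon arrays, where 42.7 to 67.3% of spots were well above background.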
